A study of Mus musculus with 6 samples.

Results

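The blood vessel lining of mouse liver tumours was followed through 10 genes, 8 of the endothelial wall (Pecam1, Cdh5, Emcn, Esam, Cldn5, Robo4, Plvap and Mmrn2) and 2 of endothelial tip cells (Esm1 and Apln). They were taken by symbol from the deposited table of 55536 genes. Each symbol had 1 Ensembl ID, and all 10 passed the filter on low counts that left 17423 genes for testing. The 3 tumours labelled TSDP came from mice given, through a vein, nanoparticles that held both sorafenib, a kinase inhibitor, and DNIC, which releases nitric oxide, on 6 days between day 10 and day 23. The 3 labelled Control came from mice given no treatment, and the labels name no empty carrier. All mice were male C3H of 6 to 8 weeks that had 1000000 cells of HCA-1, a line from a mouse hepatocellular carcinoma, placed under the liver capsule, and tumours were collected on day 24. Tumour cells, invading host vessels and neighbouring liver are all mouse, so their reads cannot be told apart by species. The comparison asks whether vessel genes stand at other levels in treated than in untreated tumours.

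Endothelial cells line every blood vessel and are held together by adherens and tight junctions, which set how leaky the wall is. New vessels grow from tip cells, which lead a sprout towards VEGF and switch on secreted genes such as Esm1 and Apln, while stalk cells behind them form the tube. Sorafenib blocks VEGF receptors among other kinases, and nitric oxide is a vessel-relaxing signal made by endothelium itself. Hepatocellular carcinomas are fed mainly by new arterial vessels, whereas healthy liver is perfused through sinusoids whose thin, perforated lining has little of the usual junctions.

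Total counts were 36376925 to 36629665 in the TSDP libraries and 32130808 to 38953397 in the Control libraries. The libraries differed in the liver RNA they held. The summed level of 21 hepatocyte genes was 24397 to 74501 CPM (counts scaled to 1000000 per library, with TMM factors) in TSDP, against 28986, 4695 and 135 CPM in Control 4, 5 and 3. Control 3 therefore stands apart. Control 5 also lay below every TSDP library, while Control 4 lay within the TSDP range. For the wall and tip cell genes, fold changes are shown with and without Control 3. Results for partner genes and for the other gene lists are given with Control 3 included only. In bulk tissue, fewer endothelial cells and less RNA per cell cannot be told apart.

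The 8 wall genes all averaged higher in TSDP tumours and both tip cell genes averaged lower, but 0 of the 10 passed edgeR's quasi-likelihood test at a Benjamini-Hochberg adjusted p of 0.05, as did 0% of all genes tested. At an unadjusted p under 0.05 there were 4 of 10, Robo4, Plvap and Mmrn2 higher and Apln lower. Of all genes 13.4% reached that level, 8.60% higher and 4.75% lower. limma-voom also called 0 of the 10, and 0% of all genes. DESeq2 called Mmrn2 (adjusted p = 0.00738) and Plvap (adjusted p = 0.0468), both higher, and 3.38% of the genes it tested, 2.98% higher and 0.397% lower. The median log2 fold change (TSDP over Control) was 0.33 over the 10 genes and -0.02 over all genes. Over the 10 genes it was 0.14 without TSDP 2 and 0.19 without Control 5. Positive values were found for 8 of the 10 and for 47.3% of all genes.

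**Figure D1:**
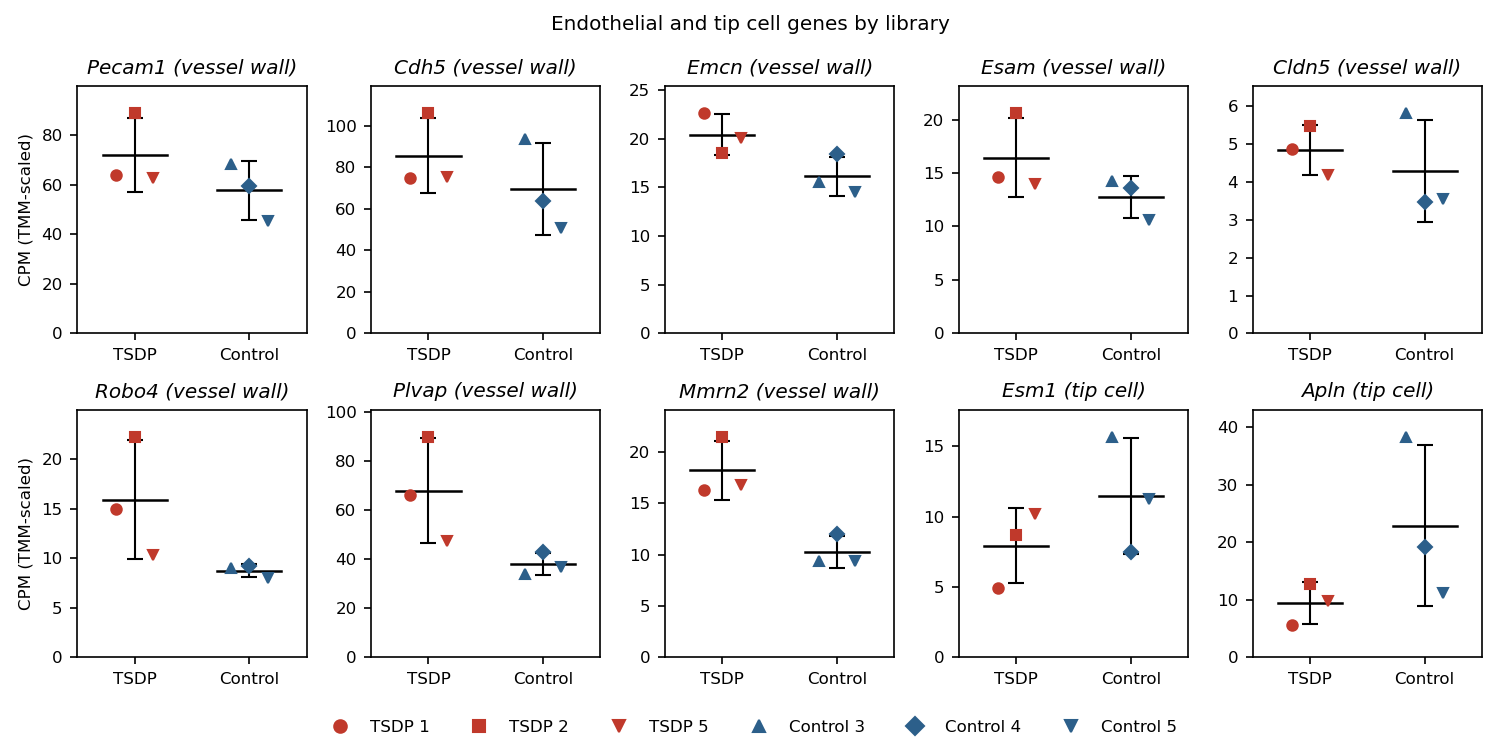
CPM of each of the 10 genes in every library, TSDP on the left and Control on the right, with 1 marker shape per replicate number, a bar at the group mean and whiskers of 1 SD (n = 3 each); axes start at 0. Mmrn2, Plvap, Robo4 and Emcn lie higher in all TSDP libraries than in any Control library, while Control 3 is the highest library for Cldn5, Esm1 and Apln.

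The junction genes come first. Cdh5 (ENSMUSG00000031871, chr8:104101625-104144511, plus strand, GRCm38) encodes VE-cadherin, the adhesion molecule of endothelial adherens junctions. Its level was 74.7, 106 and 75.6 CPM in TSDP 1, 2 and 5, and 93.7, 64.0 and 50.7 CPM in Control 3, 4 and 5. Only Control 3 among the Control libraries reached into the TSDP range. The log2 fold change was 0.30 ± 0.26 (SE, edgeR adjusted p = 0.625). Without Control 3 it was 0.56 ± 0.22 (SE, edgeR adjusted p = 0.545), while it was 0.11 without TSDP 2 and 0.10 without Control 5.

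Pecam1 (ENSMUSG00000020717, chr11:106654217-106750628, minus strand) encodes CD31, an adhesion receptor at endothelial contacts that platelets and leukocytes also carry. It was counted at 63.8, 89.1 and 62.8 CPM in TSDP 1, 2 and 5, and at 68.5, 59.5 and 45.2 CPM in Control 3, 4 and 5. The order of libraries was nearly that of Cdh5, with TSDP 2 first, Control 3 second, and Control 4 and 5 last in both. Its log2 fold change was 0.32 ± 0.21 (SE, edgeR adjusted p = 0.527), against 0.13 without TSDP 2 and 0.15 without Control 5. Esam (ENSMUSG00000001946, chr9:37528078-37538319, plus strand), an immunoglobulin-family molecule of endothelial tight junctions also found on platelets, stood at 14.7, 20.7 and 14.0 CPM in TSDP 1, 2 and 5, and at 14.2, 13.6 and 10.6 CPM in Control 3, 4 and 5. Control 3 lay just above TSDP 5, and the log2 fold change was 0.36 ± 0.21 (SE, edgeR adjusted p = 0.476), against 0.16 without TSDP 2 and 0.22 without Control 5.

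Cldn5 (ENSMUSG00000041378, chr16:18776847-18778262, plus strand), the main claudin of endothelial tight junctions, had the lowest count of the 10 genes, 113 reads in Control 4. Its level was 4.88, 5.49 and 4.18 CPM in TSDP 1, 2 and 5, and 5.84, 3.46 and 3.55 CPM in Control 3, 4 and 5. The groups overlapped through Control 3 alone, which held the highest level of the 6. The log2 fold change was 0.18 ± 0.27 (SE, edgeR adjusted p = 0.79), and 0.45 ± 0.24 without Control 3 (SE, edgeR adjusted p = 0.621). It was 0.05 without Control 4 or Control 5, 0.07 without TSDP 2 and 0.27 without TSDP 5.

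The other 4 wall genes, which encode surface and matrix proteins, were each higher in every TSDP library than in any Control library. Over all genes tested 13.0% were separated in that direction and 21.8% in either. Mmrn2 (ENSMUSG00000041445, chr14:34375465-34404287, plus strand), an endothelial matrix glycoprotein that binds the receptors CD93 and CLEC14A, had the smallest p of the 10. It was counted at 16.3, 21.5 and 16.7 CPM in TSDP 1, 2 and 5, and at 9.33, 12.0 and 9.35 CPM in Control 3, 4 and 5. The lowest TSDP library was well above the highest Control library, and the log2 fold change was 0.83 ± 0.18 (SE, adjusted p = 0.326 by edgeR).

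Plvap (ENSMUSG00000034845, chr8:71497765-71511752, minus strand) builds the diaphragms that span endothelial fenestrae and caveolae, and is known as a marker of tumour vessels and of capillarised liver vessels. It stood at 66.5, 90.2 and 47.6 CPM in TSDP 1, 2 and 5, and at 34.2, 43.1 and 37.0 CPM in Control 3, 4 and 5. The Control libraries lay close together while the TSDP libraries spread widely, with TSDP 2 the highest. The log2 fold change was 0.84 ± 0.24 (SE, edgeR adjusted p = 0.326), and 0.57 ± 0.19 without TSDP 2 (SE, edgeR adjusted p = 0.588).

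Robo4 (ENSMUSG00000032125, chr9:37401897-37415115, plus strand), an endothelial receptor of the roundabout family, binds UNC5B and is known to steady the vessel wall. Its level was 15.0, 22.3 and 10.4 CPM in TSDP 1, 2 and 5, and 8.99, 9.23 and 7.98 CPM in Control 3, 4 and 5. TSDP 5 was only slightly above Control 4, and the log2 fold change was 0.86 ± 0.28 (SE, edgeR adjusted p = 0.334). Without TSDP 2 it was 0.53 ± 0.21 (SE, edgeR adjusted p = 0.589). Emcn (ENSMUSG00000054690, chr3:137341067-137432185, plus strand), a sialomucin of the endothelial surface found mainly in veins and capillaries, was counted at 22.7, 18.5 and 20.1 CPM in TSDP 1, 2 and 5, and at 15.6, 18.4 and 14.5 CPM in Control 3, 4 and 5. It was the 1 wall gene for which TSDP 2 was the lowest of the TSDP libraries. The gap between TSDP 2 and Control 4 was so narrow that the groups overlapped under each of the other 3 scalings tried, and the log2 fold change was 0.34 ± 0.15 (SE, edgeR adjusted p = 0.389).

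Promoter sequences were at hand for 5 of the 10 genes (RefSeq, GRCm38.p6). Each gave the 250 bases before the RefSeq start, which lies 75 bases inside Robo4 and 11 bases inside Emcn as GENCODE places these genes. Robo4 (chr9:37401722-37401896, plus strand) and Emcn (chr3:137340828-137341066, plus strand) are shown because both wall genes were separated between the groups, and only up to the GENCODE start. Capitals mark AGGAAG, a core read by ETS factors such as ERG and FLI1 that drive endothelial genes, and GCGTG or ACGTG, the core read by hypoxia-inducible factors, on either strand. The 2 motifs share no base in these windows.
Robo4: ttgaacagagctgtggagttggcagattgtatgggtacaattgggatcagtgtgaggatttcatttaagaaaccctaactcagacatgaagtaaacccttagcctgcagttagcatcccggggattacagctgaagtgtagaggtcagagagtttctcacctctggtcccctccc
Emcn: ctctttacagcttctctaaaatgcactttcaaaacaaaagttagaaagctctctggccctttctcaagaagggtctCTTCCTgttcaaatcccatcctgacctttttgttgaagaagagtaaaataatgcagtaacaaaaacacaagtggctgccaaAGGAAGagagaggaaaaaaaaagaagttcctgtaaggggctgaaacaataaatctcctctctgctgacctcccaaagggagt
Emcn held 2 ETS cores in the bases shown, 77 to 82 and, on the opposite strand, 158 to 163 bases before the GENCODE start. The bases shown for Robo4 held neither motif. The only match of Robo4, an ETS core 44 to 49 bases before the RefSeq start, and the hypoxia core of Emcn, 7 to 11 bases before it, fall inside the genes as GENCODE gives them and are not shown. The ETS core occurred in 29.5% and a hypoxia core in 38.6% of 32851 RefSeq promoter windows of 250 bases, so the matches describe the letters and nothing more.

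Both tip cell genes averaged lower in TSDP tumours. Apln (ENSMUSG00000037010, chrX:48025146-48034853, minus strand) encodes apelin, a secreted peptide made by sprouting endothelium under hypoxia and VEGF, which acts on the receptor encoded by Aplnr. It stood at 5.61, 12.8 and 9.79 CPM in TSDP 1, 2 and 5, and at 38.4, 19.1 and 11.2 CPM in Control 3, 4 and 5. TSDP 2 lay above Control 5, so the groups overlapped by 1 library. The log2 fold change was -1.28 ± 0.51 (SE, edgeR adjusted p = 0.371). Without Control 3 it was -0.70 ± 0.40 (SE, edgeR adjusted p = 0.654).

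Esm1 (ENSMUSG00000042379, chr13:113209659-113218098, plus strand) encodes endocan, a proteoglycan secreted by tip cells in answer to VEGF. It was counted at 4.96, 8.73 and 10.2 CPM in TSDP 1, 2 and 5, and at 15.7, 7.48 and 11.2 CPM in Control 3, 4 and 5. Control 4 lay below both TSDP 2 and TSDP 5, and the log2 fold change was -0.53 ± 0.37 (SE, edgeR adjusted p = 0.543). Without Control 3 it was -0.25 ± 0.36 (SE, edgeR adjusted p = 0.871) and without TSDP 1 it was -0.28. Aplnr averaged 2.13 CPM ± 1.21 in TSDP and 4.32 CPM ± 2.82 in Control (SD, n = 3 each), and its groups overlapped.

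The promoters of Apln (chrX:48034854-48035103, minus strand) and Esm1 (chr13:113209409-113209658, plus strand) are set beside those of the wall genes because the fold changes point the other way. Capitals mark the same motifs.
Apln: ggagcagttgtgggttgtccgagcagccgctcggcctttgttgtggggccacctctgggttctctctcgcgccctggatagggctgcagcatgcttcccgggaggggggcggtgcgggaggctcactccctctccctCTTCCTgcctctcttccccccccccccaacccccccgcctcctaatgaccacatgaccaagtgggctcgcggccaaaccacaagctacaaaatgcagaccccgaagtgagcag
Esm1: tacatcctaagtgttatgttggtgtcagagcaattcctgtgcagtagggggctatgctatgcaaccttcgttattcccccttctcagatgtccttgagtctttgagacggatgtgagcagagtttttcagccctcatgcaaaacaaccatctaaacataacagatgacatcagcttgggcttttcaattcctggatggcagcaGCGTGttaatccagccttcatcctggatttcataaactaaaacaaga
Apln held 1 ETS core on the opposite strand, 108 to 113 bases before the start, and no hypoxia core in this window. Esm1 held 1 hypoxia core, 43 to 47 bases before the start, and no AGGAAG.

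**Figure D2:**
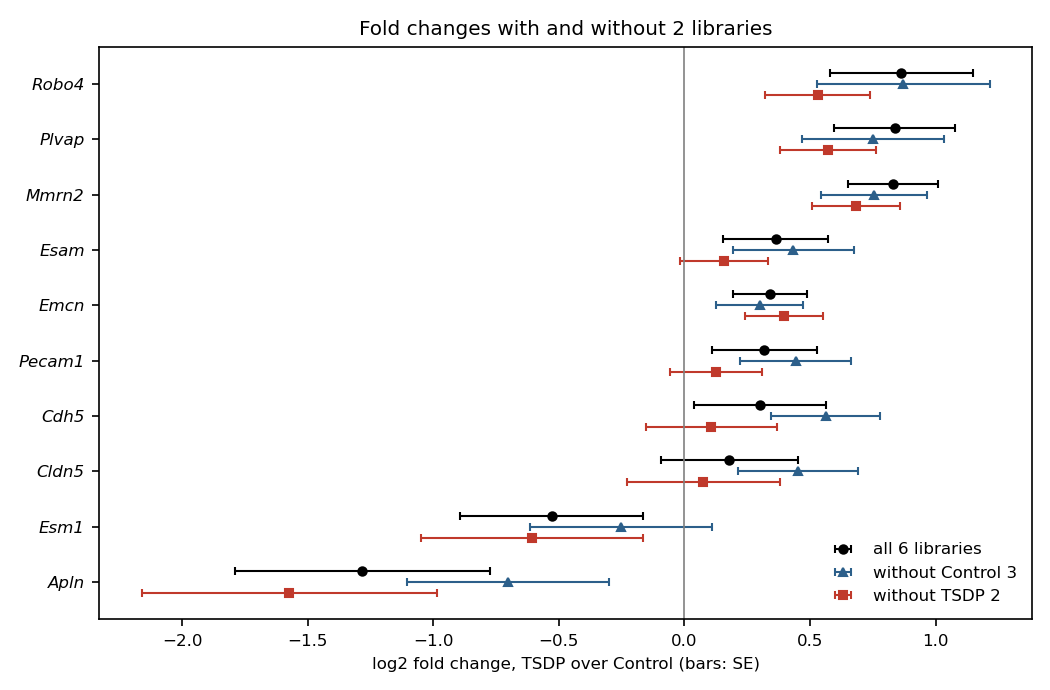
Log2 fold change (TSDP over Control) of each of the 10 genes from edgeR with 1 SE, for all 6 libraries (black), without Control 3 (blue) and without TSDP 2 (red). The 8 wall genes stay above 0 and the 2 tip cell genes below 0 in all 3 fits, while Apln is at -0.70 without Control 3 and -1.57 without TSDP 2.

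How cleanly the groups parted depended on single libraries. Without Control 3 all 8 wall genes were higher in every TSDP library than in either remaining Control library, against 14.7% of all genes higher in that smaller comparison (12.9% lower, 27.6% in all). Without TSDP 2 the count was 4 wall genes higher, against 15.1% of all genes, and Apln lower, against 15.0% (30.1% in all). TSDP 2 was the highest library for Pecam1, Cdh5, Esam, Robo4, Plvap and Mmrn2. It also had the most hepatocyte RNA, and Control 3 the least. The part of liver content in these differences was not tested beyond a fit with the hepatocyte level as a covariate. In that fit Mmrn2 stood at 0.62, Cdh5 at 0.64, Apln at -0.57 and Esm1 at 0.08. None of them was called, and 0 of all genes tested were.

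Between genes, levels can be set side by side only per length of exon, here CPM per kilobase of all exons in GENCODE release M21. Plvap was highest in both groups, at 34.3 ± 10.7 in TSDP and 19.2 ± 2.27 in Control (SD, n = 3 each). Cdh5 followed at 20.4 ± 4.30 in TSDP and 16.5 ± 5.24 in Control, and in Control its gap to Plvap was smaller than its own SD. Pecam1 came next, at 11.5 ± 2.40 in TSDP and 9.27 ± 1.89 in Control. Apln was last of the 10 in TSDP, at 2.99 ± 1.15, and stood behind Plvap, Cdh5 and Pecam1 in Control, at 7.28 ± 4.44. The other 6 ran in TSDP from Esam at 5.73 through Mmrn2, Esm1, Emcn and Cldn5 to Robo4, each step being smaller than the SD of one of its genes. In Control they ran from Esm1 at 5.47 through Esam, Cldn5, Emcn and Mmrn2 to Robo4 at 1.65, where the steps from Esam to Cldn5, from Emcn to Mmrn2 and from Mmrn2 to Robo4 were larger than either gene's SD.

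To set the genes against endothelial content, each was expressed as a percentage of Cdh5 in the same library, a measure chosen after the data were seen. The percentage is not a level per endothelial cell, since reads of other cells cannot be told apart. The cell source of Apln and Esm1 was not tested. Pecam1 was 85.4%, 83.8% and 83.1% of Cdh5 in TSDP 1, 2 and 5, and 73.1%, 93.0% and 89.0% in Control 3, 4 and 5. Esam was 18.5% to 19.6% in TSDP and 15.2% to 21.2% in Control. These 3 junction genes thus kept nearly fixed proportions in TSDP, and the TSDP values lay inside the Control range. Emcn and Cldn5 also overlapped between the groups.

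Mmrn2 and Apln were the 2 of 9 genes separated on this scale, Mmrn2 upward, as were 4.39% of all genes, and Apln downward, as were 11.7%, with 16.1% in either direction. Mmrn2 was 21.8%, 20.2% and 22.1% of Cdh5 in TSDP 1, 2 and 5, and 9.95%, 18.7% and 18.4% in Control 3, 4 and 5. The percentage for Mmrn2 was low in Control 3 and close to the TSDP values in the other 2. In CPM, Mmrn2 was 9.33 in Control 3 and 9.35 in Control 5, while Cdh5, the divisor, was 93.7 and 50.7. Cdh5 stood at 23.3% of the summed level of 30 other endothelial genes in Control 3. It stood at 14.3% and 14.8% in Control 4 and 5, and at 12.2% to 15.9% in TSDP. Apln was 7.51%, 12.1% and 13.0% in TSDP 1, 2 and 5, and 41.0%, 29.9% and 22.1% in Control 3, 4 and 5. The highest TSDP value of Apln was well below the lowest Control value, Control 3 set aside or not. Esm1 was 6.63%, 8.20% and 13.4% in TSDP, and 16.7%, 11.7% and 22.1% in Control 3, 4 and 5, with TSDP 5 above Control 4. Plvap and Robo4 overlapped on this scale, with Control 3, where the divisor was high, at the bottom for both.

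**Figure D3:**
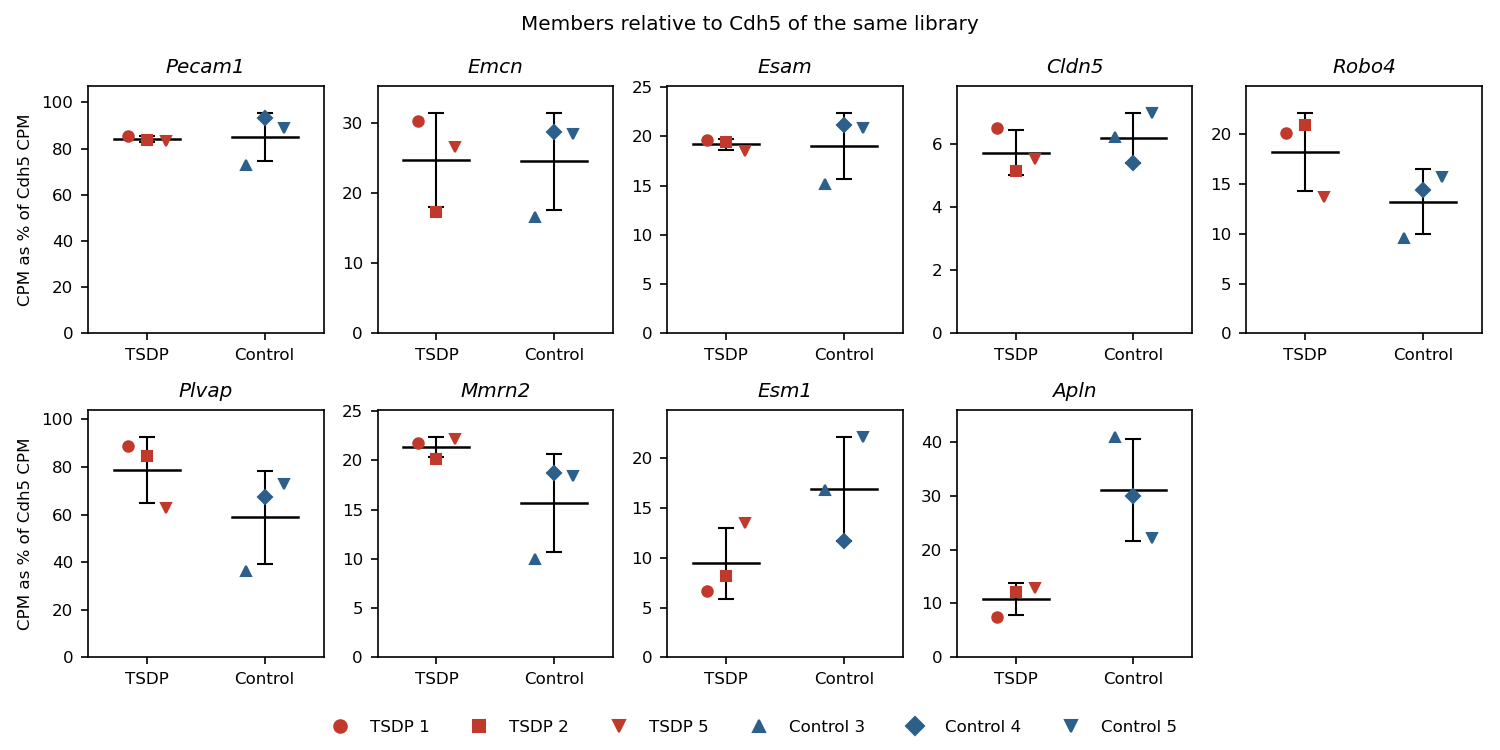
Level of 9 genes as a percentage of Cdh5 in the same library, TSDP left and Control right, with the mean and 1 SD (n = 3 each); axes start at 0. Pecam1 lies between 83.1% and 85.4% in TSDP, and Apln between 7.51% and 13.0% in TSDP against 22.1% to 41.0% in Control.

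Set against the summed level of 30 other endothelial genes, which was 550, 874 and 475 CPM in TSDP 1, 2 and 5 and 403, 447 and 344 CPM in Control 3, 4 and 5, none of the 8 wall genes was separated upward, as 4.77% of all genes were. Esam and Apln were separated downward, as were 36.8% of all genes (41.6% in either direction), since the divisor itself was higher in every TSDP library. Apln took 1.02%, 1.47% and 2.06% of that sum in TSDP 1, 2 and 5, and 9.53%, 4.28% and 3.26% in Control 3, 4 and 5. Esam took 2.67%, 2.36% and 2.95% in TSDP, and 3.54%, 3.03% and 3.07% in Control. Mmrn2 took 2.96%, 2.46% and 3.52% in TSDP, and 2.32%, 2.68% and 2.72% in Control, and so overlapped here.

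The 30 other endothelial genes had a median log2 fold change of 0.66, with 28 positive and 0 past the edgeR threshold. Higher in every TSDP library were 15 of them, against 13.0% of all genes. At an unadjusted p under 0.05 in edgeR there were 14, all higher, against 8.60% of all genes in that direction. Their median is above the 0.35 of the 8 wall genes. The sets have no gene in common but were read from the same libraries. Among the named partners, Clec14a, a receptor of Mmrn2, was counted at 14.0, 37.1 and 12.6 CPM in TSDP 1, 2 and 5, and at 7.94, 9.81 and 5.32 CPM in Control 3, 4 and 5. The other receptor, Cd93, averaged 93.4 CPM ± 8.58 in TSDP and 98.6 CPM ± 23.6 in Control (SD, n = 3 each). In CPM, Clec14a was thus separated between the groups and Cd93 was not. As a percentage of Cdh5 both were separated, Clec14a upward, as were 4.39% of all genes, and Cd93 downward, as were 11.7%. On that scale Cd93 was 94.5% to 126.5% in TSDP and 130.4% to 154.0% in Control. Unc5b, the binding partner of Robo4, averaged 119 CPM ± 19.6 in TSDP and 132 CPM ± 45.1 in Control (SD, n = 3 each).

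Of 20 other tip cell genes 10 were positive and 10 negative, with a median of -0.003 and 0 past the threshold, so the list was evenly split in direction. In bulk tumours, reads of tip cells cannot be told from those of other cells, so the split describes the list and not tip cells alone. The cell source of these genes was not tested. Separated upward were Dll4, the Notch ligand of tip cells, Nid2 and Flt4, and downward Adm, which encodes the hypoxia-induced peptide adrenomedullin. The shares over all genes were 13.0% upward and 8.76% downward. Adm stood at 6.27, 28.1 and 28.5 CPM in TSDP 1, 2 and 5, and at 76.6, 42.1 and 36.5 CPM in Control 3, 4 and 5, with Control 3 highest and TSDP 1 lowest as for Apln. Angpt2, which loosens the vessel wall, averaged 15.1 CPM ± 3.07 in TSDP and 19.5 CPM ± 6.30 in Control (SD, n = 3 each). Of 14 stalk, venous and Notch genes 9 were positive, with a median of 0.11, 0 past the threshold and 1 separated upward.

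Of 16 junction partners 9 were positive, with a median of 0.22 and 0 past the threshold. Jam2 and F11r, junctional adhesion molecules related to Esam, were separated upward, together with Jam3, Cgn and Kdr, against 13.0% of all genes. Ctnnb1 and Tjp1, which are on the list and averaged lower in TSDP, are made by tumour cells and hepatocytes as well.

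VEGF, the signal that tip cells follow, was read from its ligand and receptors. Vegfa averaged 255 CPM ± 41.1 in TSDP and 361 CPM ± 84.1 in Control (SD, n = 3 each), with the groups overlapping. Kdr, the main signalling receptor, was counted at 51.7, 90.6 and 46.3 CPM in TSDP 1, 2 and 5, and at 30.1, 39.1 and 24.7 CPM in Control 3, 4 and 5. Flt1, a second VEGF receptor, averaged 85.2 CPM ± 24.3 in TSDP and 92.0 CPM ± 3.87 in Control (SD, n = 3 each). Kdr was separated upward like Plvap and Mmrn2, whereas Flt1 overlapped.

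A list of 16 hypoxia genes lay in the same direction as the tip cell genes. All 16 had negative log2 fold changes, with a median of -0.63, 0 past the threshold and 11 separated downward, where 8.76% of all genes were. Their mean log2 CPM was 6.03, 6.79 and 7.08 in TSDP 1, 2 and 5, and 7.53, 7.29 and 7.39 in Control 3, 4 and 5. TSDP 1, the lowest library by this measure, was the lowest for Apln and Esm1, and Control 3, the highest, was the highest for both. Among the others the order differed, with Control 5 below TSDP 2 for Apln and Control 4 below TSDP 5 for Esm1. The part of hypoxia in the levels of Apln and Esm1 was not tested.

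**Figure D4:**
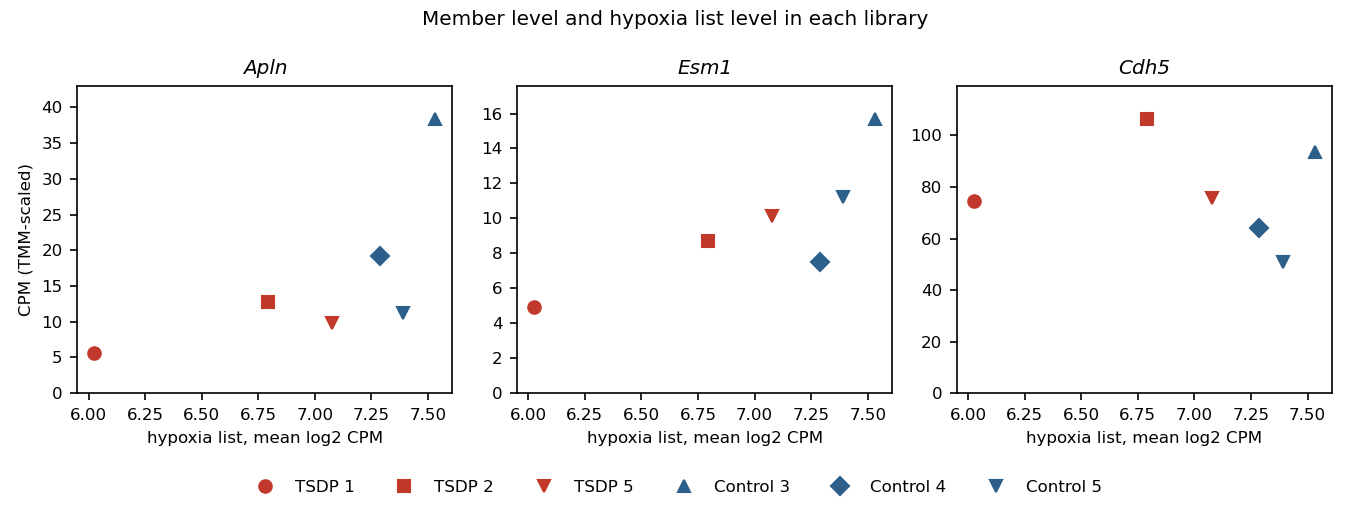
CPM of Apln, Esm1 and Cdh5 (vertical axes, from 0) against the mean log2 CPM of 16 hypoxia genes (horizontal axis), 1 point per library, TSDP in red and Control in blue. TSDP 1 at 6.03 holds the lowest Apln and Esm1 and Control 3 at 7.53 the highest, while Cdh5 is highest in TSDP 2.

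Genes of other cells that could carry or accompany these transcripts were read as whole lists. The hepatocyte list had the highest median log2 fold change of the lists, at 2.51. All 21 of its tested genes were positive, with 0 past the threshold and 12 separated upward. The groups thus differed on average in liver content as well as in treatment. The part of liver content in the wall genes was not tested beyond the covariate fit. Of 12 tested sinusoidal endothelial genes 10 were positive, with a median of 1.63. Beside 13.0% of all genes, 7 of them were separated upward. Their summed level was 868 to 1277 CPM in TSDP and 622 to 1024 CPM in Control. Clec4g, a defining sinusoidal gene, was counted at 15.2, 36.0 and 11.3 CPM in TSDP 1, 2 and 5, and at 0.031, 7.27 and 3.11 CPM in Control 3, 4 and 5. Control 3 was the lowest library for Clec4g and for Stab2, a scavenger receptor of sinusoids, at 0.741 CPM. In the other direction, Stab1, Mrc1 and Fcgr2b, which macrophages also make, were higher in Control 3 than in any other library, at 177, 384 and 252 CPM. Of 6 tested lymphatic genes 5 were positive, with summed levels of 139 to 352 CPM in TSDP and 58.2 to 113 CPM in Control, but Prox1 and Reln on that list are also liver genes. No gene of the sinusoidal or lymphatic list was at 0 in any library. The part of sinusoidal and lymphatic cells in the wall genes was not tested.

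Platelets carry Pecam1 and Esam as well. Of 11 platelet genes 5 were tested and 2 of them positive, with summed levels of 16.7 to 33.7 CPM in TSDP and 17.2 to 22.4 CPM in Control, and Gp1bb and Gp6 were each at 0 in 1 library or more. Leukocyte genes were positive in 9 of 10, with a median of 0.34 beside the 0.32 of Pecam1, and summed levels of 1571 to 2194 CPM in TSDP and 1155 to 1695 CPM in Control, none at 0. Their part in the level of Pecam1 was not tested.

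**Figure D5:**
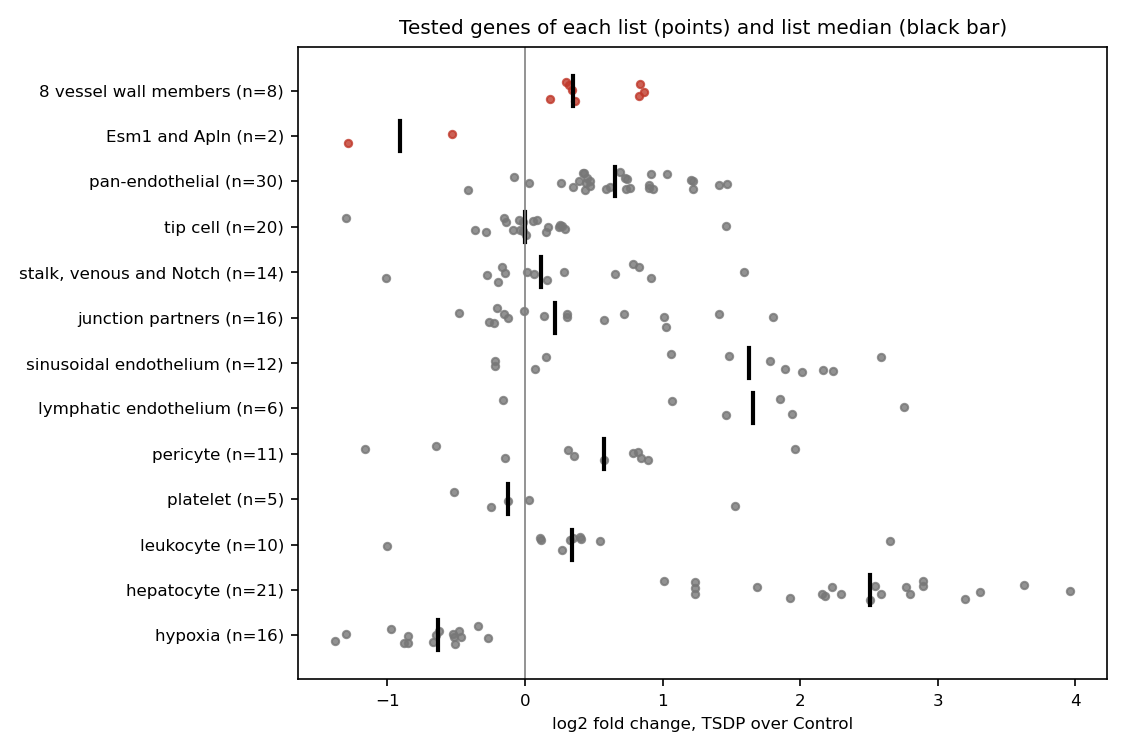
Log2 fold change (TSDP over Control) of every tested gene of each list (points) with the list median (black bar), the 10 genes in red. The 8 wall genes lie between 0.18 and 0.86, below the sinusoidal median of 1.63 and above the hypoxia median of -0.63, and Apln and Esm1 are at -1.28 and -0.53.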

How the data were processed

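Per the labels' protocols, RNA of 6 tumours was taken up with an RNeasy kit, and KAPA mRNA libraries were sequenced. The submitters' processing notes name featureCounts 2.0.0, HISAT2 2.1.0 and Trimmomatic 0.38, beside CASAVA, FastQC and MultiQC. Build and strand are not stated in the sources used here. The 55536 Ensembl IDs are exactly those of GENCODE release M21 on GRCm38, which supplied coordinates and exon lengths. By it, no exon of the 10 genes overlaps another gene's exon.

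The deposited counts are whole reads per gene, not normalized. The second deposited table, a normalized signal, is each count over a library constant (to a relative 1e-14) and supplied only symbols. No column belonged to another sample.

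edgeR 4.0.16 (R 4.3.3) was run with TMM factors, filterByExpr (minimum count 10) and legacy glmQLFit and glmQLFTest on the group, over 17423 genes. SE was taken as the size of the log2 fold change over the square root of F. limma 3.58.1 and DESeq2 1.42.0 were alternatives. The steps were tested on simulated data. A gene is separated when all values of one group lie beyond all of the other.

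The members and lists were chosen with earlier results of these data known. Named by rule were the 10 genes, 7 partners (Aplnr, Cd93, Clec14a, Unc5b, Kdr, Flt1 and Vegfa) and the gene of smallest p in each list and direction. Other list genes in the text were chosen after their values were seen. Only the titles mark the replicates as separate, so the p-values cover the spread among these libraries, which may be technical. No library repeated another, the lowest chi-square per gene between any pair being 46.5.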

Additional observations from a re-analysis of the deposited data

How the results depend on the processing

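The 8 wall genes had positive and Apln negative log2 fold changes under each alternative run, which were other tools, scalings, filters, the hepatocyte covariate and each library left out. Esm1 turned to 0.0836 with the hepatocyte level as a covariate, and the cause was not tested. The count of the 10 genes past the threshold was 0 in edgeR and 2 in DESeq2, which called 620 genes in all where edgeR called 0, or 1 with no filter on low counts. With each library left out in turn, edgeR again called 0 of the 10, and 0 of all genes tested. The count separated in CPM was 4, all higher, where 21.8% of all genes were separated. Under each of the other 3 scalings it was 3, where 22.1% to 23.7% of all genes were separated. With a library left out it ranged from 4 to 8, including 1 tip cell gene lower without TSDP 2, Control 4 or Control 5. The share of all genes was also higher in each such run, from 26.0% without TSDP 1 to 41.9% without Control 4. It was 27.6% without Control 3, where the count was 8. The count separated after division by the endothelial sum was 2 and ranged from 2 to 6, with 4 without Control 4 or Control 5 and 6 without TSDP 5, where 69.5%, 44.8% and 67.1% of all genes were separated. At an unadjusted p under 0.05 edgeR had 1499 genes higher and 827 lower, against 1126 higher and 1371 lower with upper quartile factors and 1156 higher and 1271 lower with no scaling factors. The spread between libraries (edgeR's biological coefficient of variation, 34.9%) and 3 libraries a group limit what can be called, more so for Cldn5 at 113 to 190 reads. No paired analysis was possible because the groups share only the replicate number 5.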

Other observations

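Pericytes, the mural cells that wrap the endothelium, were mixed in direction. Of 11 tested pericyte genes 8 were positive, with a median log2 fold change of 0.57 and 0 past the edgeR threshold. Rgs5, a G protein regulator of mural cells, was counted at 82.7, 160.1 and 83.9 CPM in TSDP 1, 2 and 5, and at 42.5, 81.6 and 57.7 CPM in Control 3, 4 and 5. Cspg4, which encodes the pericyte proteoglycan NG2, stood at 26.0, 23.8 and 36.1 CPM in TSDP, and at 49.4, 43.4 and 41.6 CPM in Control. Both genes were separated between the groups, Rgs5 upward and Cspg4 downward (log2 fold change -0.64 ± 0.18, SE, edgeR adjusted p = 0.326). Ndufa4l2, a hypoxia-induced gene of pericytes and tumour cells, was also separated downward. The shares over all genes were 13.0% upward and 8.76% downward. Cspg4 can be made by tumour cells, and its source was not tested.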
